A study of Homo sapiens with 6 samples.

Results

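The receptors for insulin-like growth factors (IGFs), the adaptors that carry the receptor signal and the IGF-binding proteins were followed in MDA-MB-231 cells, a triple-negative breast cancer (TNBC) line, and in cells made resistant to Adriamycin (doxorubicin, ADR). The 10 genes were taken by name from the 58735 genes of the count table: IGF1R, IGF2R, IRS1, IRS2, IGFBP2, IGFBP3, IGFBP4, IGFBP5, IGFBP6 and IGFBP7. The edgeR filter on low counts kept 8 of the 10, and IGFBP2 and IGFBP5 were not tested. The labels give 3 libraries of parent cells (MB_parent) and 3 of ADR resistant cells (MB_ADR12, called ADRr here), with the genotype WT in both groups. ADRr cells came from the parent line by growth in rising doses of ADR followed by limiting dilution to single clones. The number of clones behind the libraries and the drug dose at harvest, if any, are not given in the sources used here, so resistance, clone and drug exposure cannot be told apart. The labels do not say whether the libraries of a group came from separate cultures, so p-values measure the spread between these libraries, which may be technical.

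The IGF system joins a few secreted ligands to a large set of proteins that handle them. IGF1 and IGF2 bind IGF1R, a tyrosine kinase close in sequence to the insulin receptor INSR, and both receptors phosphorylate the adaptors IRS1 and IRS2, which recruit PI3-kinase and so lead to AKT. IGF2R, the cation-independent mannose 6-phosphate receptor, has no kinase, carries lysosomal enzymes and takes IGF2 into the cell for breakdown. The IGF-binding proteins (IGFBPs) hold IGFs outside the cell, and proteases release the ligand by cutting them. IGF1R signalling is a known survival pathway in breast cancer cells, and the medium of these cells contained serum, which brings IGFs of its own.

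Among the members, IGF1R, IRS1, IGFBP4 and IGFBP7 were lower in ADRr cells, IRS2, IGFBP3 and IGFBP6 were higher, and IGF2R did not pass the test. IGFBP4 moved the furthest of the 8, 3.74-fold lower. IRS1 and IRS2 moved in opposite directions, 2.36-fold lower and 1.98-fold higher. A gene counted as called where its adjusted p was 0.05 or less (edgeR's quasi-likelihood test, Benjamini-Hochberg over all 15242 tested genes) and it changed 1.2-fold or more. By this rule 3 members were called higher and 4 lower, 87.5% of the 8 tested. Calls were common in these libraries: 58.8% of all tested genes were called, 29.2% higher and 29.6% lower. Parent and ADRr libraries did not overlap for 7 of the 8 members, beside 69.2% of all tested genes. The median log2 fold change of the members was -0.39, beside -0.0061 for all tested genes, and their median absolute log2 fold change was 0.88, beside 0.46. With 8 genes these shares describe the members and say nothing particular of them as a group.

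The promoters of 4 members are shown because the results turn on these genes: the receptor, the 2 adaptors that moved in opposite directions, and the binding protein with the largest change. Each sequence is the 250 bases before the RefSeq start of transcription on GRCh38.p14, 5′ to 3′ on the strand of the gene. Capitals mark matches on either strand to the GC box (GGGCGG), the CCAAT box (CCAAT), the TATA box (TATAAA), the AP-1 element (TGACTCA), the STAT element (TTCNNNGAA), the FOXO core (GTAAACA) and the E-box (CACGTG), and neighbouring or overlapping matches run together.
IGF1R, chr15:98648289-98648538, plus strand: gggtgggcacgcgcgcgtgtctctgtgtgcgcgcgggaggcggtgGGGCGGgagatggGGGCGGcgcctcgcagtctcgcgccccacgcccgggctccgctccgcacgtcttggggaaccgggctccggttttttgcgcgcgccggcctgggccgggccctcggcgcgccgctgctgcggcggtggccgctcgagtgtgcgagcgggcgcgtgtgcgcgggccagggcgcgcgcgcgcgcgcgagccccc
IRS1, chr2:226799821-226800070, minus strand: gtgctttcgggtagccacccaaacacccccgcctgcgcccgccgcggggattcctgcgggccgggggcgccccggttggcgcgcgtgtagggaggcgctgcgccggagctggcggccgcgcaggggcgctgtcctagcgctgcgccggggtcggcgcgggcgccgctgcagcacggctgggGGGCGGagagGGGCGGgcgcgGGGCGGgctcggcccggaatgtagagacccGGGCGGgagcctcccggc
IRS2, chr13:109786584-109786833, minus strand: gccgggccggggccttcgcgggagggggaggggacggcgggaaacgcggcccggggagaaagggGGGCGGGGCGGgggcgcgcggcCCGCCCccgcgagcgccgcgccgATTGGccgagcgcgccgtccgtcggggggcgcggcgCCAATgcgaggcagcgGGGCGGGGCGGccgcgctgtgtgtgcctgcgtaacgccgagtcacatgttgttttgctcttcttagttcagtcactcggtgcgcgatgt
IGFBP4, chr17:40443200-40443449, plus strand: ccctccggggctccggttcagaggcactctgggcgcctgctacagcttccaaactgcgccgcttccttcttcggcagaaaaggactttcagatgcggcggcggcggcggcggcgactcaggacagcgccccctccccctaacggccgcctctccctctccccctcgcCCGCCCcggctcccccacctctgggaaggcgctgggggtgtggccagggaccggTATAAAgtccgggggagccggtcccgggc
IGF1R had 2 GC boxes in this window, IRS1 had 4, IRS2 had 5 with 2 CCAAT boxes, and IGFBP4 had 1 with a TATA box that starts 29 bases before the start site. Among all 35116 RefSeq promoters of this length, 42.6% held a GC box, 32% a CCAAT box and 10.7% a TATA box. The other motifs were not matched in these 4 windows and are in 4.2% (AP-1), 6.57% (STAT), 2.98% (FOXO) and 6.34% (E-box) of all promoters. The IGF1R, IRS1 and IRS2 windows were 81.2, 80.8 and 76.4% G and C, with 48, 39 and 42 CpG dinucleotides. The IGFBP4 window was 71.6% G and C with 24 CpG, and the medians over all promoters were 58% and 11. Thus the adaptors that moved apart both had GC-rich windows with GC boxes and no TATA box, while IGFBP4 had the TATA box. Among the other tested members, the IGF2R window (not called) was 79.2% G and C, with 6 GC boxes and 3 E-boxes. The IGFBP3 window (called higher) was 76% with 2 GC boxes. The IGFBP6 window (called higher) was 61.2% with 1 GC box and a FOXO core. None of these windows held the TATA box. A match is a run of letters and does not show a binding site. Of the 10 members, 9 had an entry in the RefSeq table, and IGFBP7 had none.

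IGF1R (ENSG00000140443, chromosome 15, 98648539 to 98964530, plus strand, GRCh38 as in the GENCODE 29 annotation of the files) was lower in every ADRr library. Its counts, normalized by edgeR's TMM method to a common library size, were 803, 715 and 767 in parent replicates 1 to 3 and 309, 311 and 314 in ADRr replicates 1 to 3. The groups stood far apart, and the ADRr libraries were nearly equal. The means were 761 ± 44.0 and 311 ± 2.30 (SD, n = 3 libraries each). The log2 fold change (ADRr against parent) was -1.29, with a standard error of 0.083 and a 95% interval from -1.46 to -1.12 (edgeR adjusted p = 4.5e-12), or 2.45-fold lower. Per gene length, IGF1R was the lowest of the tested members in both groups, at 3.12 ± 0.19 FPKM in parent cells and 1.28 ± 0.012 in ADRr cells.

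IGF2R (ENSG00000197081, chromosome 6, 159969099 to 160113507, plus strand) had 11408, 10768 and 10835 normalized counts in parent libraries and 11074, 10768 and 10978 in ADRr libraries. The groups overlapped. Its log2 fold change was -0.0082, with a standard error of 0.045 and a 95% interval from -0.10 to 0.086 (edgeR adjusted p = 0.88), which bounds a change in either direction below the called size. M6PR, the cation-dependent mannose 6-phosphate receptor that shares its sorting task, also did not pass the test, at 1442 ± 105 and 1469 ± 41.0 normalized counts. As IGF1R fell, the ratio of IGF2R to IGF1R in FPKM went from 11.3 ± 0.40 in parent libraries to 27.5 ± 0.47 in ADRr libraries.

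The insulin receptor gene INSR, whose product can pair with IGF1R in hybrid receptors, was also lower. Its normalized counts were 894, 863 and 889 in parent libraries and 646, 512 and 507 in ADRr libraries, with ADRr replicate 1 the nearest to the parent libraries and no overlap. The log2 fold change was -0.67 (standard error 0.086, edgeR adjusted p = 4.5e-07). The ratio of IGF1R to INSR in FPKM was 0.647 ± 0.026 in parent libraries and 0.426 ± 0.058 in ADRr libraries, so IGF1R was the lower of the 2 receptors in every library.

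Transcripts for the ligands were at or near 0. IGF1 and INS had no count in any library. IGF2 had 3, 8 and 5 counts in parent libraries and 0 in each ADRr library, and a second row of the table under the name IGF2 was 0 throughout. INSRR, the insulin receptor-related receptor, had 1 count in all 6 libraries together. Total counts were 15983985 to 18272314 per library, and 0 counts allow up to 3. As CPM, counts divided by the total of their library and brought to a common scale, this is 0.164 to 0.188, a limit for counting error alone.

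IRS1 and IRS2, the docking proteins of IGF1R and INSR, changed places. IRS1 (ENSG00000169047, chromosome 2, 226731317 to 226799759, minus strand) had 4261, 4169 and 4440 normalized counts in parent libraries and 1779, 1837 and 1843 in ADRr libraries. Every ADRr library was below every parent library. The means were 4290 ± 138 and 1820 ± 35.2, a log2 fold change of -1.24 (standard error 0.052, edgeR adjusted p = 2.9e-15).

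IRS2 (ENSG00000185950, chromosome 13, 109752698 to 109786568, minus strand) had 1019, 894 and 1059 normalized counts in parent libraries and 1997, 1983 and 1909 in ADRr libraries. All ADRr libraries were above the parent libraries, with means of 990 ± 86.2 and 1963 ± 47.5. The log2 fold change was 0.99 (standard error 0.066, edgeR adjusted p = 8.7e-12). In FPKM, IRS1 fell from 24.6 ± 0.76 to 10.5 ± 0.20 and IRS2 rose from 6.96 ± 0.60 to 13.8 ± 0.31. The ratio of IRS1 to IRS2 was 3.42, 3.82 and 3.43 in parent libraries and 0.728, 0.757 and 0.790 in ADRr libraries, so the more abundant adaptor was IRS1 in each parent library and IRS2 in each ADRr library. These ratios, like the other ratios given here, were chosen after the values were seen and have no test: with 3 libraries against 3 an exact permutation test cannot go below p = 0.1.

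**Figure D1:**
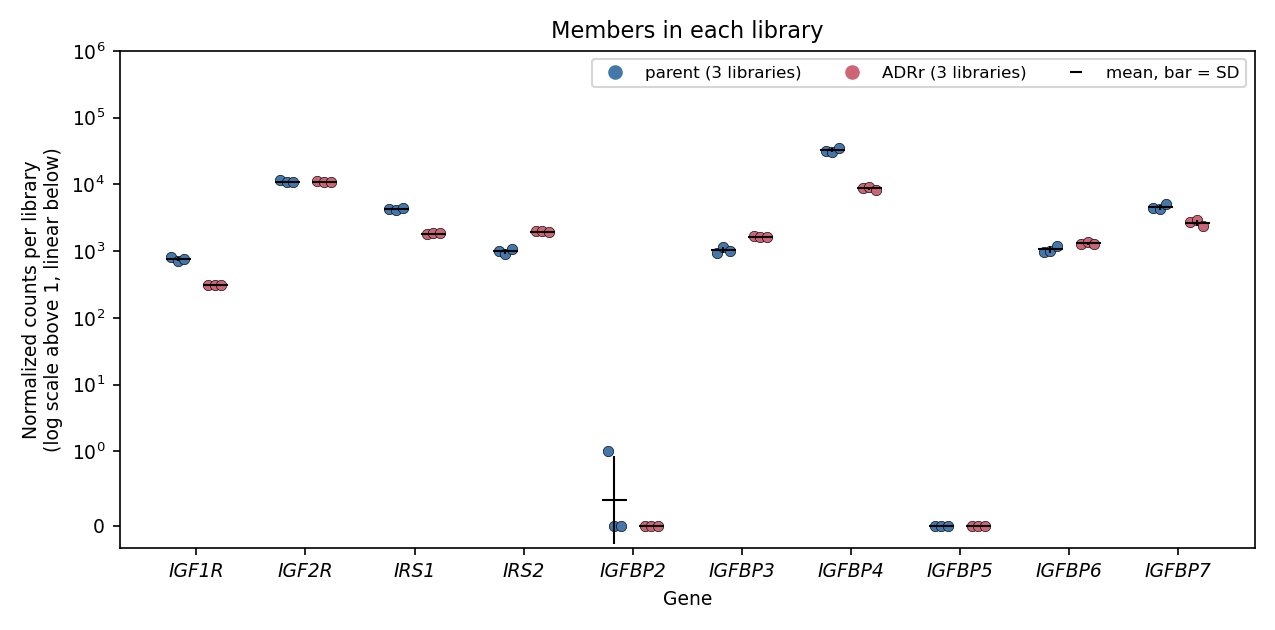
Normalized counts of the 10 members in each library, on a scale that is logarithmic above 1 and linear below. Points are libraries (3 parent, 3 ADRr), the line is the mean and the bar the SD. IGF1R, IRS1, IGFBP4 and IGFBP7 sit lower in ADRr libraries, IRS2, IGFBP3 and IGFBP6 higher, IGF2R overlaps, and IGFBP2 and IGFBP5 lie at or near 0.

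**Figure D2:**
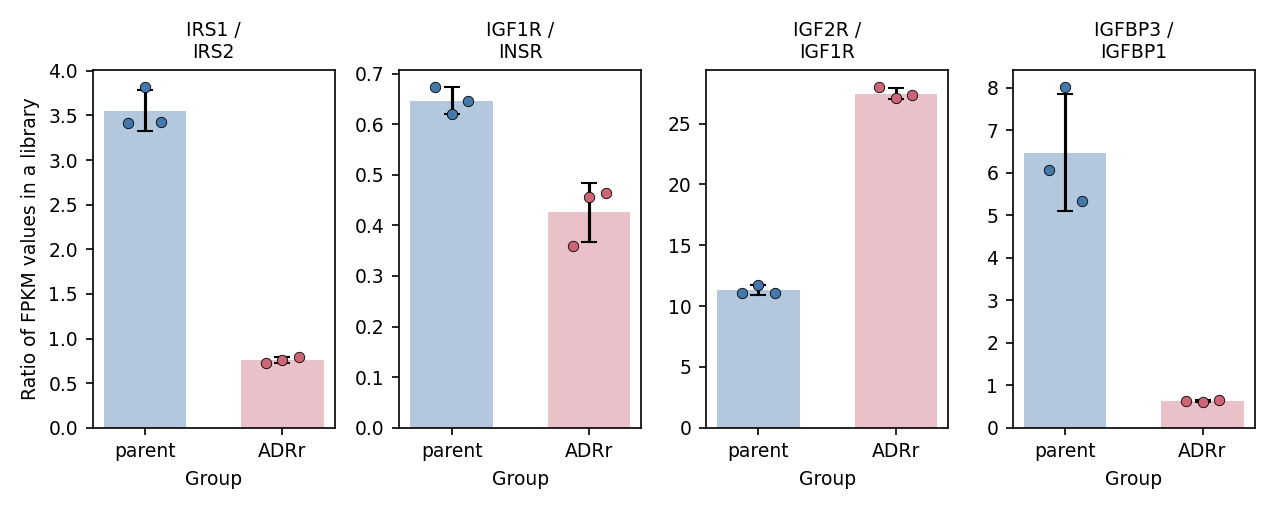
Ratios of FPKM values within a library for 4 pairs of genes. Bars start at 0 and give the mean of 3 libraries, error bars the SD and points the libraries, and each panel has its own axis. IRS1 over IRS2 fell from above 3 to below 1, and IGF2R over IGF1R rose from 11.3 to 27.5.

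IGFBP4 was the most abundant binding protein in both groups. IGFBP4 (ENSG00000141753, chromosome 17, 40443461 to 40457731, plus strand), which binds both IGFs and is cut by the protease PAPPA, had 31718, 30884 and 34626 normalized counts in parent libraries. In ADRr libraries it had 8800, 8955 and 8263. The means were 32409 ± 1965 and 8673 ± 363, a log2 fold change of -1.90 (standard error 0.051, 95% interval -2.01 to -1.80, edgeR adjusted p = 7.9e-19). Ranked by mean FPKM among all genes of the table, IGFBP4 stood at place 25 in parent cells (842 ± 49.5 FPKM) and at place 100 in ADRr cells (226 ± 8.88 FPKM).

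IGFBP7 (ENSG00000163453, chromosome 4, 57030773 to 57110385, minus strand), a secreted protein that binds IGFs weakly and is also a matrix protein, was the next most abundant. It had 4449, 4197 and 4987 normalized counts in parent libraries and 2740, 2879 and 2361 in ADRr libraries, with no overlap. The log2 fold change was -0.77 (standard error 0.069, edgeR adjusted p = 1.2e-09), or 1.71-fold lower. The gene shares 270 exon bases, 14% of its own, with POLR2B on the opposite strand, an RNA polymerase II subunit gene whose log2 fold change was -0.98. POLR2B had 3383, 3384 and 3387 counts in parent libraries and 1806, 1643 and 1969 in ADRr libraries. The strand setting of the counting is not given in the sources used here, so reads from the shared bases cannot be told apart, and their part in the IGFBP7 value was not tested.

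IGFBP3 and IGFBP6 moved the other way. IGFBP3 (ENSG00000146674, chromosome 7, 45912245 to 45921874, minus strand), the main IGF carrier of serum and a protein with IGF-independent effects on growth, had 934, 1151 and 1006 normalized counts in parent libraries. In ADRr libraries it had 1656, 1630 and 1638, all above the parent libraries and closer to each other. Its log2 fold change was 0.67 (standard error 0.069, edgeR adjusted p = 1.3e-08), or 1.59-fold higher.

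IGFBP6 (ENSG00000167779, chromosome 12, 53097436 to 53102345, plus strand), which prefers IGF2, had 960, 1011 and 1197 normalized counts in parent libraries and 1255, 1379 and 1298 in ADRr libraries. The groups were separate, but parent replicate 3 came close to ADRr replicate 1. The log2 fold change was 0.31 (standard error 0.075, 95% interval 0.15 to 0.47, edgeR adjusted p = 9.4e-04), or 1.24-fold higher. This is the smallest called change among the members, and without parent replicate 1 it was 0.24 (edgeR adjusted p = 0.019), below the called size.

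IGFBP2 and IGFBP5 lie next to each other on chromosome 2 (IGFBP2, ENSG00000115457, 216632828 to 216664436, plus strand; IGFBP5, ENSG00000115461, 216672105 to 216695525, minus strand), 7.67 kb apart. IGFBP2 had 1 count in parent replicate 1 and 0 in the other libraries, and IGFBP5 had 0 in all 6. Neither was detectable at this depth.

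IGFBP1 is no member but lies 18.6 kb from IGFBP3 on chromosome 7 (45888357 to 45893668), with no other gene of the table between them. It is a secreted binding protein under the control of insulin and cell stress in the liver. IGFBP1 had 55.6, 51.9 and 68.2 normalized counts in parent libraries and 941, 970 and 899 in ADRr libraries. All ADRr libraries were far above the parent libraries, with a log2 fold change of 3.99 (standard error 0.11, edgeR adjusted p = 1.4e-18), or 15.9-fold. Both genes of this pair were thus called higher, at 0.67 and 3.99, and the ratio of IGFBP3 to IGFBP1 in FPKM went from 6.48 ± 1.38 to 0.634 ± 0.025.

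The IGFBP transcripts of a cell can be compared per gene length as shares of their summed FPKM (IGFBP1 to IGFBP7). IGFBP4 made up 81.3% of the sum in parent cells and 54.6% in ADRr cells. IGFBP7 went from 13.0 to 19.1%, IGFBP6 from 4.32 to 13.5%, IGFBP3 from 1.25 to 4.98% and IGFBP1 from 0.195 to 7.85%. The share of each of these 5 genes lay apart between the groups. Shares add up to a whole, so a lower IGFBP4 raises the shares of the others. The share of IGFBP7 rose while its FPKM fell from 135 ± 11.7 to 79.0 ± 7.76. IGFBP6 itself went from 44.8 ± 5.17 to 55.9 ± 2.57 FPKM. The sum itself was 1036 ± 65.6 FPKM in parent libraries and 414 ± 18.7 in ADRr libraries, 2.50-fold lower. Without IGFBP4 it was 194 ± 16.2 and 188 ± 10.1, with overlapping groups, so nearly all of the difference in the sum was that of IGFBP4, while the makeup of the rest differed. Shares of CPM, which do not allow for gene length, gave IGFBP3 2.65 and 10.8% and IGFBP6 2.70 and 8.62%, and kept the direction of each change.

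**Figure D3:**
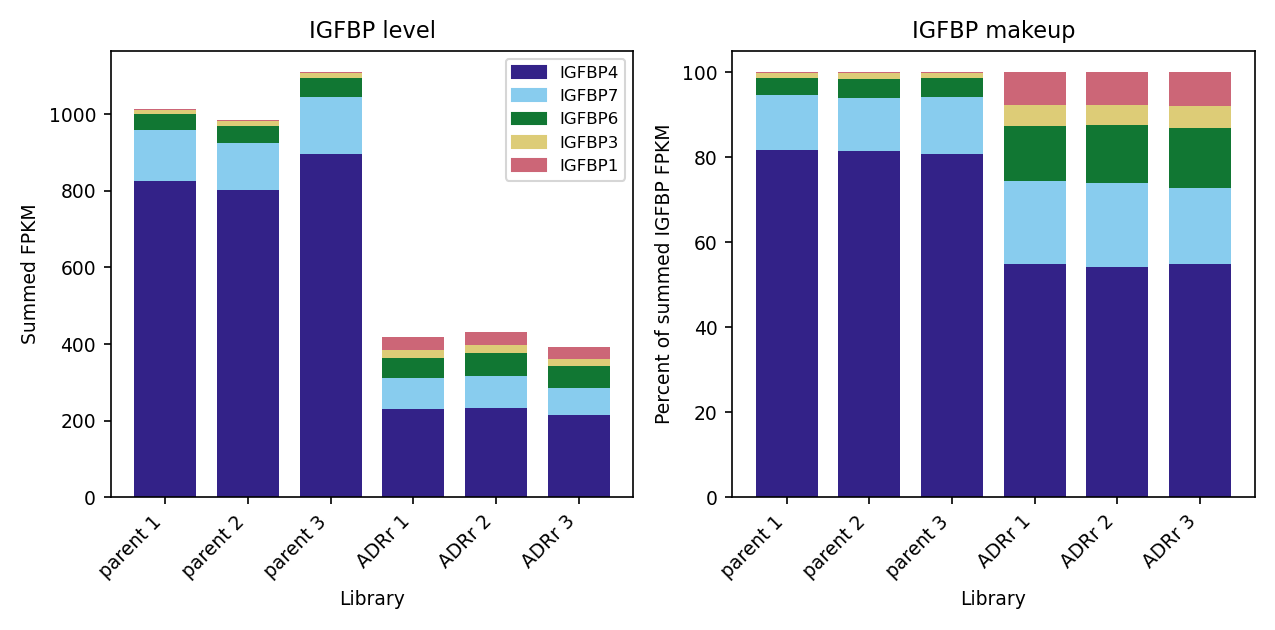
Summed FPKM of the IGFBP genes (left) and each gene's percent of that sum (right) in the 6 libraries. IGFBP4 fills most of each parent bar (81.3% on average) and 54.6% of the ADRr bars, and the bars of ADRr libraries are lower (414 against 1036 FPKM on average).

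By mean FPKM the order of levels in parent cells was IGFBP4, IGFBP7, IGFBP6, IGF2R, IRS1, IGFBP3, IRS2, INSR, IGF1R and IGFBP1. In ADRr cells it was IGFBP4, IGFBP7, IGFBP6, IGF2R, IGFBP1, IGFBP3, IRS2, IRS1, INSR and IGF1R. In both orders the libraries of each gene lay apart from those of the next, other than IGFBP2 and IGFBP5 at the end. The first 4 places were held by the same genes. The changes were IGFBP1 moving up, IRS1 moving below IGFBP3 and IRS2, and IGF1R taking the last place of these 10.

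IGFBP proteases and their inhibitors had 9 tested genes, 4 called higher and 4 lower, 88.9% called beside 58.8% of all tested genes. HTRA1, a serine protease, rose from 164 ± 3.32 to 455 ± 36.9 normalized counts (log2 fold change 1.47), and ADAM12 rose from 35.8 ± 10.6 to 89.9 ± 9.47 (1.33). ADAM28 fell from 722 ± 11.7 to 288 ± 7.92 (-1.33). STC1, a secreted inhibitor of pappalysins, fell from 2051 ± 108 to 1211 ± 8.75 (-0.76). PAPPA, the protease that cuts IGFBP4, was below the 50 counts set for named genes and is given after its values were seen: 46.3, 56.3 and 41.9 normalized counts in parent libraries and 24.7, 15.7 and 15.9 in ADRr libraries (log2 fold change -1.35, edgeR adjusted p = 4.1e-04). Both IGFBP4 and PAPPA transcripts were therefore lower in ADRr cells.

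Among the sorting partners of IGF2R and surface partners of the IGFBPs, 7 genes were tested, with 2 higher and 3 lower. These calls were 71.4% of the 7, beside 58.8% of all tested genes. GNPTAB and GNPTG encode subunits of the enzyme that makes the mannose 6-phosphate tag read by IGF2R. GNPTAB fell (-0.78, from 848 ± 76.1 to 494 ± 28.3 normalized counts) and GNPTG rose (0.51, from 430 ± 71.8 to 614 ± 34.6). LRP1, an endocytic receptor that binds IGFBP3, fell by 1.10 on the log2 scale, and PLAUR, the urokinase receptor, which binds IGF2R, rose by 0.97.

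Receptor adaptors and brakes had 26 tested genes, 9 higher and 8 lower, 65.4% called beside 58.8% of all tested genes. SOCS2, a suppressor of cytokine signalling that also binds IGF1R, had the largest increase of the list (2.46 on the log2 scale). GRB10, an adaptor that restrains IGF1R and INSR, rose from 1262 ± 49.5 to 3136 ± 11.4 normalized counts (1.31). CAV1, the coat protein of caveolae, fell by 1.30 and SOCS3 by 1.10 on the log2 scale.

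The PI3K, AKT and mTOR list had 29 tested genes, 10 higher and 6 lower, 55.2% called beside 58.8% of all tested genes. TRIB3, a pseudokinase that binds AKT, rose from 583 ± 42.0 to 4004 ± 186 normalized counts (2.78), and EIF4EBP1, the translation repressor that mTOR phosphorylates, rose by 1.08. PHLPP1, a phosphatase of AKT, fell by 1.15, and INPPL1, an inositol phosphatase, by 0.48.

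FOXO factors and targets are transcription factors, most of which AKT keeps out of the nucleus, and genes they bind. This list had 18 tested genes, 9 higher and 6 lower, 83.3% called beside 58.8% of all tested genes. TXNIP, an arrestin-like inhibitor of thioredoxin and glucose uptake, rose from 938 ± 27.7 to 14804 ± 338 normalized counts (3.98), and GADD45A, a growth arrest gene, rose by 1.22. CAT, which encodes catalase, fell by 1.31 and FOXO6 by 0.94. IRS2 and IGFBP1 are known FOXO targets as well, but stand among the other genes here.

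The list of IGF2 mRNA-binding proteins and their regulators had 4 tested genes, 2 higher and 0 lower. This is 50% called, beside 58.8% of all tested genes. HMGA1 (1.12) and HMGA2 (0.63), chromatin proteins, were the called genes, and IGF2BP2 did not pass the test at 2332 ± 26.0 and 2320 ± 138 normalized counts. The ligands and other receptors had 3 tested genes, 100% called: IGFBP1 higher, and INSR and IGFBPL1 lower, the last at -2.31. Over the 7 lists together, 96 of 113 genes were tested, 37 were higher and 29 lower, 68.8% called beside 58.8% of all tested genes, with a median log2 fold change of 0.069.

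**Figure D4:**
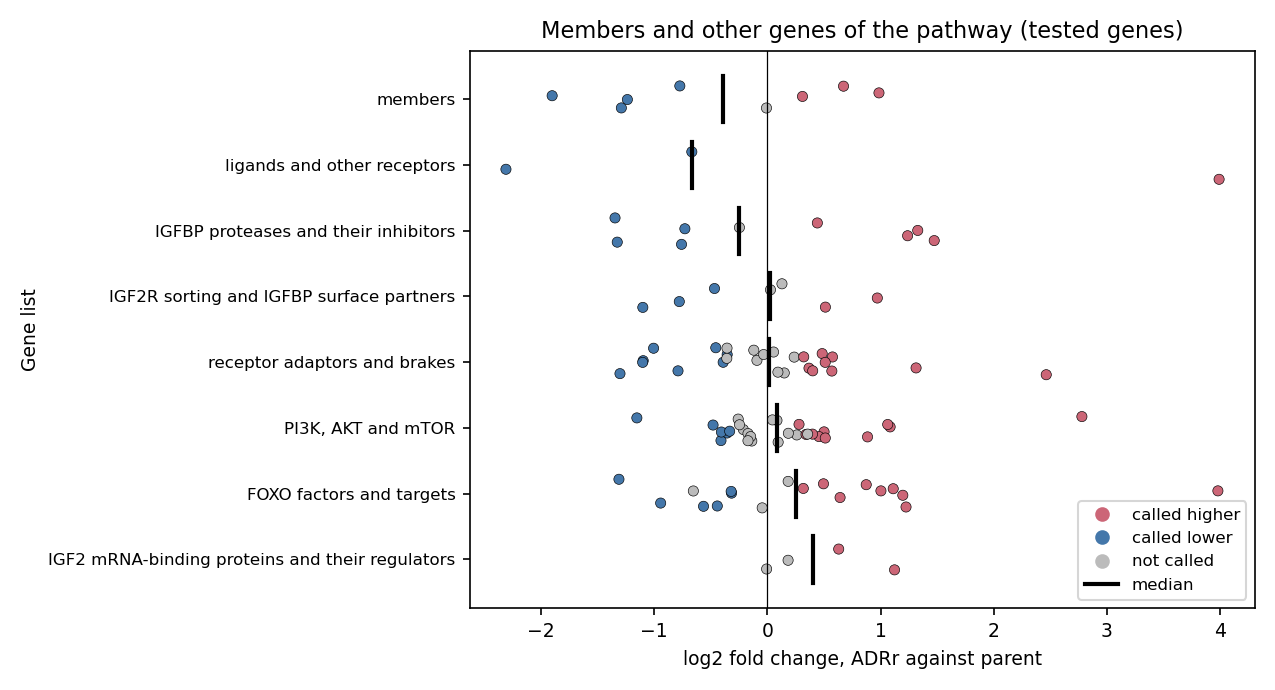
Log2 fold changes (ADRr against parent) of the tested members and of the tested genes in 7 lists of the pathway. Points are genes, colour shows the call and the bar is the median of a list. Each list but that of the IGF2 mRNA-binding proteins holds genes called in both directions, and the members' median is -0.39.

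Each member was set beside the 50 nearest tested genes on its chromosome. For reference, 29.6% of all tested genes were called lower and 29.2% higher. Around IGFBP4 the median log2 fold change of these neighbours was -0.60, with 34 lower and 5 higher, so its own -1.90 lay 1.30 below its neighbourhood. Around IRS2 the median was 0.57, with 28 higher and 2 lower, and IRS2 at 0.99 lay 0.41 above it. The neighbours of IRS1 had a median of 0.22 with 20 higher and 12 lower, the opposite direction to IRS1 itself. The nearest tested gene on each side of IRS1, looked at after the values were seen, was called lower. These were AC010735.2 at -1.43 (standard error 0.42), 0.386 kb away, and AC016717.2 at -0.66 (0.29). The neighbours of IGF1R (-0.40), IGF2R (-0.35) and IGFBP7 (-0.47) were lower on balance, and those of IGFBP3 (0.069) and IGFBP6 (-0.14) were near 0. Against these medians IGF1R lay 0.89 and IGFBP7 0.31 lower, and IGF2R 0.35, IGFBP3 0.60 and IGFBP6 0.45 higher. The number of gene copies was not measured, and the part of the neighbourhood in these values was not tested.

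**Figure D5:**
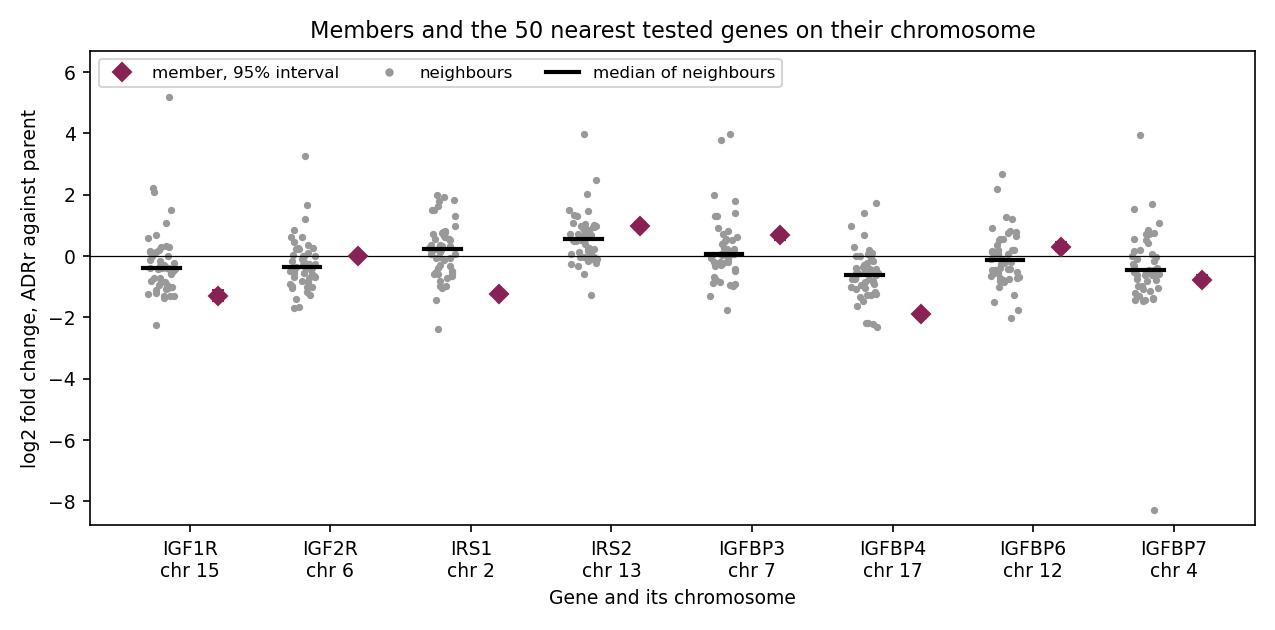
Log2 fold change (ADRr against parent) of each tested member (diamond, with its 95% interval, which is often smaller than the symbol) and of its 50 nearest tested genes (points, with their median as a bar). IGF1R, IRS1, IGFBP4 and IGFBP7 lie below the median of their neighbours, and the neighbours of IRS2 are mostly above 0.

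The cell type labels were checked on marker lists. For the mesenchymal TNBC line, VIM, CD44 and AXL of 4 markers were at 1 CPM or more in both groups and SPARC was not, with a summed level of 2992 to 3058 CPM in parent libraries and 2901 to 2978 in ADRr libraries. Within this sum CD44 was called higher (log2 fold change 0.80) and VIM (-0.56) and AXL (-0.62) lower. Of 6 receptor and luminal genes that are usually low in TNBC, 4 were at 1 CPM or more in both groups, with sums of 165 to 189 CPM in parent libraries and 109 to 117 in ADRr libraries. The hormone receptor genes ESR1 and PGR had at most 1 count in a library. ERBB2 had 2059 ± 164 and 869 ± 46.4 normalized counts in parent and ADRr cells and CDH1 252 ± 26.7 and 121 ± 19.2, both called lower. EPCAM was called higher, at 215 ± 47.6 and 461 ± 6.39, and GATA3, at 525 ± 40.8 and 450 ± 23.0, was not called. The fibroblast list summed to 161 to 164 CPM in parent libraries and 28.8 to 32.2 in ADRr libraries, with 4 and 3 of its 7 genes at 1 or more. DCN was 0 in all libraries, PDGFRA had at most 2 counts and COL3A1 at most 6. COL1A2 went from 1060 to 1192 counts to 4 to 11, and PDGFRB also fell (log2 fold change -2.90). COL1A1 (480 ± 33.8 to 312 ± 35.8 normalized counts) and LUM (78.2 ± 9.67 to 49.0 ± 5.71) fell less. The falls of these markers went with those of IGFBP4 and IGFBP7, and their part in them was not tested. The leukocyte list had 0 of 6 genes at 1 CPM, with sums of at most 0.438. The endothelial list had only KDR at that level, with sums of 3.25 to 5.31 in parent and 8.65 to 9.76 in ADRr libraries. In bulk RNA a change in the share of cells and a change in RNA per cell cannot be told apart.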

How the data were processed

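RNA of 3 parent and 3 ADRr libraries had been selected for poly(A), sequenced in pairs on a NovaSeq, mapped with HISAT2 2.0.5 and counted per gene with featureCounts 1.5.0-p3, per the submitters' processing notes and the methods. The sample records describe another library kit than the methods, and the series record mentions 3 time points that no label gives. The authors deposited raw counts for each gene, which are whole numbers, and FPKM, which scales them by gene length and library size. All 58735 gene identifiers and positions are those of GENCODE 29 (GRCh38).

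The counts were tested with edgeR 4.0.16 under R 4.3.3 (filterByExpr, TMM, quasi-likelihood test, Benjamini-Hochberg), with limma 3.58.1 and DESeq2 1.42.0 for alternatives. FPKM was used for levels between genes, with no test. Total counts were 15983985 to 18272314 per library and TMM factors 0.987 to 1.01. The fit was tested on simulated data. The members and lists were chosen with earlier results of these data known, and the motifs after the values were seen. Named genes are the members, the IGF ligand and insulin receptor genes, and in each list the 2 largest called increases and the 2 largest called decreases whose mean in the higher group was 50 or more normalized counts. Genes overlapping a member and marker genes are named where they bear on a value. Alternatives were DESeq2, other size factors, other filters, limma on log2(FPKM + 1) or log2(FPKM + 0.1), other thresholds, a replicate block and each library left out. Some genes of the lists are not reported here by name.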

Additional observations from a re-analysis of the deposited data

How the results depend on the processing

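Of 120 values of member fold changes under the alternatives, 119 kept direction and side of the threshold. The exception was IGFBP6 without parent replicate 1, at 0.24, and leaving out each library in turn gave it 0.24 to 0.41. IGF1R ranged from -1.34 to -0.85 over all alternatives and IGFBP4 from -1.94 to -1.86. Requiring an absolute log2 fold change of 1.2 left 0 members higher and 3 lower (3 and 4 in the report). It left 9 pathway genes higher and 5 lower (37 and 29). Among all tested genes 1114 were higher and 972 lower (4451 and 4507), since a larger change is required. With the adjusted p alone, 11 PI3K, AKT and mTOR genes were lower (6 in the report). Leaving out each library gave 2 to 3 members higher and 4 lower, and 35 to 38 pathway genes higher and 29 to 32 lower. The deviations of same-numbered libraries from their group mean had correlations of 0.0074, -0.021 and -0.046, beside -0.034 to 0.055 for different numbers. The labels do not say whether the numbers pair libraries, and these correlations cannot decide it. With the replicate block 3 members were higher and 4 lower, 36 pathway genes higher and 29 lower, and no member's call changed. Counting IGFBP1 with the members, an alternative chosen after seeing the data, gave 4 higher. Without a filter the ligands and other receptors had 3 genes lower in place of 2. Depth limits IGFBP2, IGFBP5, IGF1 and INS, which lie under the floor of 3 counts, and IGF2, with at most 8.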

Other observations

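These values were chosen after they were seen and have no test of their own. IGFBP4 lies between TOP2A, which encodes topoisomerase II alpha, the enzyme that doxorubicin traps on DNA, and TNS4, a tensin gene of focal adhesions. TOP2A ends 25.5 kb before IGFBP4 and TNS4 starts 18.1 kb after it. The log2 fold changes (ADRr against parent, edgeR) were -2.19 for TOP2A (standard error 0.055), -1.90 for IGFBP4 (0.051) and -2.19 for TNS4 (0.31), so these 3 neighbouring tested genes were all lower. On the same chromosome the 50 tested genes nearest to IGFBP4 span 2.79 Mb, and 34 of them were lower and 5 higher. Of all tested genes, 29.6% were called lower and 29.2% higher.

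The FOXO factor genes themselves differed in direction. FOXO1 rose from 182 ± 5.16 to 393 ± 54.5 normalized counts and FOXO3 from 829 ± 32.1 to 1662 ± 31.1, log2 fold changes of 1.11 and 1.00 (edgeR). FOXO4 was also called higher, from 70.1 ± 3.42 to 99.0 ± 6.22 (0.50), and only FOXO6 was lower (-0.94). In the PI3K list, PIK3CD, a catalytic subunit, rose by 1.06 on the log2 scale, while AKT1 fell by 0.41. The pappalysin inhibitors also parted: STC2 rose from 40.4 ± 8.69 to 96.0 ± 7.44 normalized counts (1.24), while STC1 fell by 0.76. CTSD, which encodes the lysosomal protease cathepsin D, a cargo of IGF2R, rose from 7838 ± 717 to 10645 ± 786 (0.44).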
